A study of Homo sapiens with 2 samples.

Results

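Transcripts of the SR proteins and of the heterogeneous nuclear ribonucleoproteins (hnRNPs), the main families of RNA-binding splicing factors, were examined in human PLC liver cancer cells with and without added PRSS35. Members were every gene whose symbol is SRSF followed by a number, or HNRNP followed by letters and numbers, without the numbered pseudogenes. This gave 37 gene names in 35 loci, of the 24991 names measured in both libraries, with 12 SR protein names and 25 hnRNP names. Genes that averaged 1 FPKM or more in the pair of libraries were taken as expressed, and 33 member loci passed, 12 of SR proteins and 21 of hnRNPs, of 10133 expressed genes. FPKM counts fragments relative to transcript length and to the mapped fragments of the library, so that levels can be set side by side between genes. The other 2 loci, HNRNPCL2 and a locus that joins HNRNPCL1, HNRNPCL3 and HNRNPCL4, were listed at 0 in both libraries. The joined locus carried a Cufflinks assembly identifier in both libraries, and an exact 0 can be a failed estimate.

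RNA from PLC cells carrying the empty pCDH vector (EV, genotype labelled WT) was compared with RNA from PLC cells that express human PRSS35, a secreted trypsin-like protease, from the same vector (genotype labelled PRSS35 over-expression). No further treatment is given for either group, the cells are described as stable lines rather than as clones, and the labels do not say whether serum was present when RNA was taken. Each condition had 1 library, so the spread between cultures is unknown and no p-value can be given. The lower and upper bounds that Cufflinks gives for each FPKM cover the error within a library only, and in bulk RNA fewer cells of a type and less RNA per cell cannot be told apart.

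PRSS35 itself, which checks the labels, had 0.643 FPKM in EV and 1836 in PRSS35, a log2 change of 10.13. Of 11 liver markers, 10 had a mean of at least 1 FPKM, with 41.2 FPKM in EV and 47.7 in PRSS35 for HNF4A. ALB, at 4.05 and 5.21, lay below the median of all expressed genes, 9.40 and 10.1. TTR, at 1.56 and 1.61, was close to the cut-off, and FGB, at 0.598 and 0.540, was under it. SERPINA1, at 2528 and 4239 FPKM, and TF, at 224 and 348, were the liver markers past 1.5-fold, and APOA1 had 576 and 494. PTPRC, DCN and ACTA2, which mark blood cells, fibroblasts and smooth muscle, were listed at 0 in both libraries, and an exact 0 can be a failed estimate. PECAM1 had 0.0076 FPKM in each library, VWF 0.030 in EV and 0.015 in PRSS35, and COL1A1 0.699 and 0.754. Of the 10 markers of other cell types, 4 were expressed, with 44.9 and 51.0 FPKM for EPCAM, 6.55 and 5.27 for KRT19, 8.05 and 10.04 for VIM, and 297 and 278 for CD68 in a row joined with MPDU1. The part of these differences in the values of the splicing factors was not tested.

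SR proteins carry an RNA recognition motif and a tail rich in arginine and serine. They bind exonic enhancers and help the U1 and U2 particles to define an exon, and kinases of the SRPK and CLK families set their place and activity. The hnRNPs coat nascent transcripts, often repress the splice sites they cover, and also act in mRNA export, stability and translation. Many genes of both families keep their own level by splicing a poison exon into their mRNA, which sends that mRNA to nonsense-mediated decay (NMD).

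Related members can share reads. HNRNPA1, the most abundant member, has a close copy, HNRNPA1L2 on chromosome 13, whose GENCODE transcript has no introns. Of the 50-base stretches of that transcript, 48.7% (630 of 1294) also occurred in transcripts of HNRNPA1, so that its reads can come from either gene. The measured HNRNPA1L2 locus spans 26315 bases in both libraries and begins 24961 bases before the GENCODE gene. The share does not describe those added bases. The pseudogene HNRNPA1P10, whose name is joined to the HNRNPA1 row, shared 72.9% of its stretches with HNRNPA1. For other related members, HNRNPDL with HNRNPD, HNRNPH2 with HNRNPH1, HNRNPF with HNRNPH1, SRSF8 with SRSF2 and SRSF3 with SRSF7, the share was at most 0.121%. It was 3.04% for HNRNPCL1 with HNRNPC, and 13.7% for the pseudogene HNRNPA3P1 with HNRNPA3.

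The start of HNRNPA3 is shown because the locus assembled in the PRSS35 library began 112 bases before that of EV. The 300 bases lie at chr2:178077272-178077571 on the plus strand, from 250 before to 50 after the RefSeq start, taken from the RefSeq promoter table (GRCh38.p14) and placed by an exact match in GRCh37 (the same assembly as hg19). Capitals mark the bases that only the PRSS35 locus covers.
HNRNPA3: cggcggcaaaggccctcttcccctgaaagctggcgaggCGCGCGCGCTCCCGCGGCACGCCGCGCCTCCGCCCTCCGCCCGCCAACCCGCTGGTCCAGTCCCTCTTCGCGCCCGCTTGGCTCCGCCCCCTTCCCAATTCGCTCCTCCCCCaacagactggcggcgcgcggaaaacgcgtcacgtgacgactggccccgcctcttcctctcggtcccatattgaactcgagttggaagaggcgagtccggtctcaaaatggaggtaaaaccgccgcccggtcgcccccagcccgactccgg
The start of HNRNPDL is shown for the same reason, in the second of its windows in the table, at chr4:83351566-83351865 on the minus strand. Capitals mark 148 bases that only the PRSS35 locus covers.
HNRNPDL: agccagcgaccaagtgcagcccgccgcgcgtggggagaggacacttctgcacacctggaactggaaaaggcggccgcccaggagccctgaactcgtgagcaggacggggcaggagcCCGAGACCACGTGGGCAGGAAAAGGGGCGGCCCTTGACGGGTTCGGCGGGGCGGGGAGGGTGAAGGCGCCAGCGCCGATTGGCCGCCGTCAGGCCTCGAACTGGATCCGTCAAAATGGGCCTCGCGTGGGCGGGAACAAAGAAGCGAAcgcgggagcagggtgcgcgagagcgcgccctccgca
These 2 genes share the direction of the locus extension but had opposite changes in level, as given below.

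The members were among the more abundant transcripts of these cells. Their median level was 70.2 FPKM in EV and 61.2 in PRSS35, against 9.40 and 10.1 for all expressed genes. The median SR protein had 32.3 and 30.1 FPKM and the median hnRNP 93.4 and 109.7. A level above 100 FPKM was reached by 11 members in EV and by 13 in PRSS35. The 5 highest loci held 47.5% of the FPKM of all members in EV and 48.2% in PRSS35, and the 2 sets differ. In EV they include the HNRNPH2 row, at 256 FPKM, which is joined with the ribosomal protein gene RPL36A. In PRSS35 HNRNPL, at 262 FPKM, takes its place. The joined HNRNPH2 row also counts among the members above 100 FPKM in both libraries.

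HNRNPA1, which represses splice sites and shuttles to the cytoplasm with mRNA, led the order with 447 FPKM in EV (bounds 433 to 461) and 489 in PRSS35 (474 to 505). In EV it was followed by HNRNPC, the core protein that binds uridine tracts, at 284, SRSF9 at 276 and HNRNPAB at 265, whose neighbouring bounds overlap. In PRSS35 SRSF9 came next at 336, above HNRNPC at 294 with bounds that do not overlap. Of the 32 neighbouring pairs in the order, 18 had overlapping bounds in EV and 16 in PRSS35. The lowest expressed members were SRSF12 at 1.60 and 1.32 FPKM and HNRNPA1L2 at 3.89 and 3.27.

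**Figure D1:**
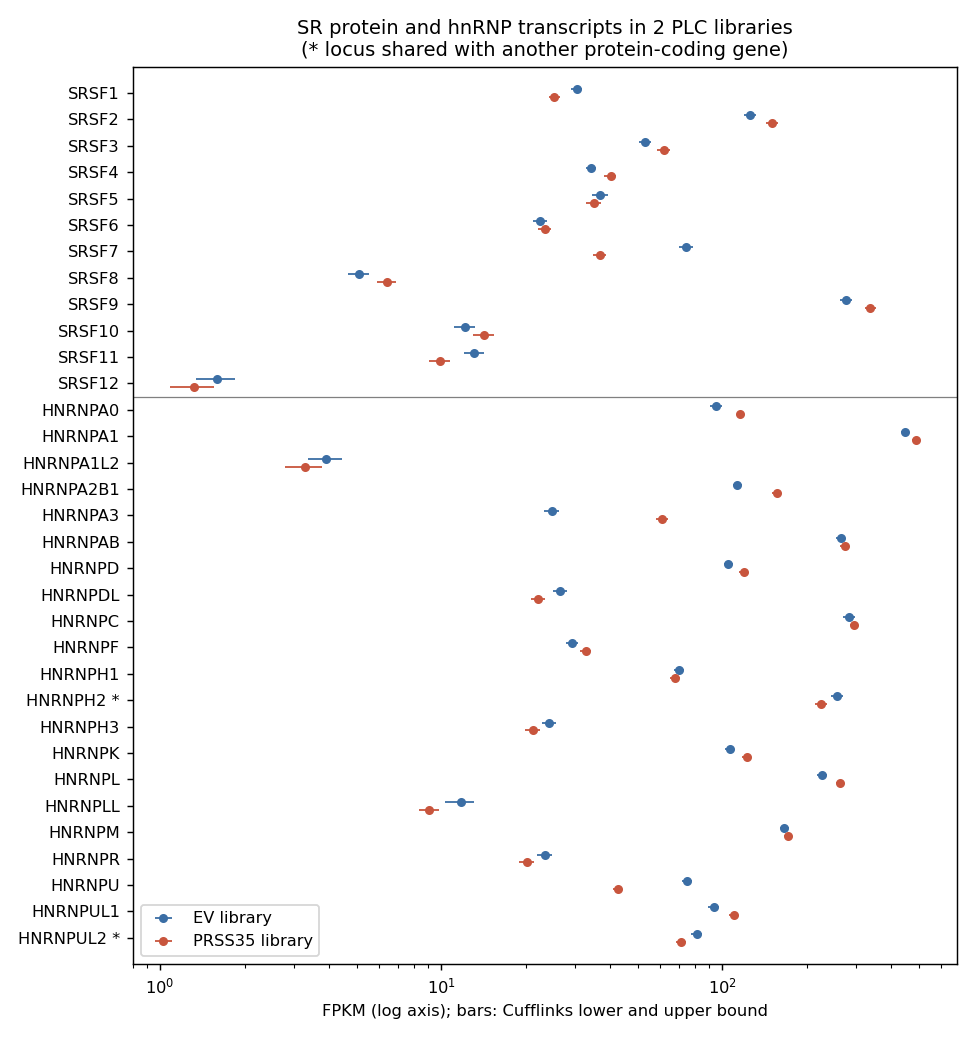
FPKM (log axis) of the 33 expressed SR protein and hnRNP loci in the EV and PRSS35 libraries, with the Cufflinks lower and upper bounds as bars and a star for loci shared with another protein-coding gene. HNRNPA1 is highest at 447 and 489 FPKM and SRSF12 lowest at 1.60 and 1.32, and most points of a gene lie close together, with HNRNPA3, SRSF7 and HNRNPU farthest apart.

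The comparison of PRSS35 with EV asks whether transcripts of splicing factors differ when the protease is expressed. Across the families the difference was small. The median log2 change, log2 of PRSS35 plus 1 FPKM over EV plus 1 FPKM, was 0.05 for the 33 members and 0.06 for all expressed genes. The value was higher in PRSS35 for 19 members and lower for 14, so that 57.6% were higher, against 60.7% of all expressed genes, and this split depends on the scaling: 45.5% were higher with changes centred on the median of all genes or with upper quartile scaling, and 93.9% when each library was scaled by the FPKM total of every locus, named or not, which shifts the median of all genes to 0.69. The changes of 27 of the 33 members lay within 0.3 of 0 on the log2 scale, as did those of 7564 of the 10133 expressed genes. The middle of the distribution ran from -0.19 to 0.22 for members (quartiles) and from -0.10 to 0.22 for all expressed genes.

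At 2-fold, 1 member was higher, HNRNPA3, where 1.89% of expressed genes were, and 1 was lower, SRSF7, where 1.84% were. The SRSF7 call lies on the threshold and ends with a pseudocount of 5 FPKM (log2 change -0.93) or with scaling by the sum over named loci (-0.96). Scaled by the total of every locus, SRSF7 (-0.31) and HNRNPU (-0.11) lie inside 1.5-fold. At 1.5-fold, HNRNPA3 remained the member counted as higher (4.32% of expressed genes), and SRSF7 and HNRNPU were lower (3.55%). HNRNPA2B1, with a log2 change of 0.46, and SRSF11, with -0.37, were the next in each direction and lay inside 1.5-fold.

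The Cufflinks bounds did not overlap for 24 members, 14 higher in PRSS35 (24.7% of all expressed genes) and 10 lower (14.3%). With upper quartile scaling the bounds of 2 of the 14, HNRNPA1 and HNRNPF, overlapped. With scaling by the sum over named loci those of 3 of the 10, HNRNPH2, HNRNPH3 and HNRNPR, did, and by the total of every locus those of 9 of the 10 were no longer lower, all but SRSF7. These bounds narrow with abundance, and their width can also differ between the libraries at a near level. HNRNPA0, assembled in EV only, had bounds of 90.5 to 99.4 FPKM in EV and 113 to 118 in PRSS35. The cut that follows sets a floor at 10 FPKM and does not match the levels above it. Among the 30 members with a mean of at least 10 FPKM, 23 had bounds apart, 13 higher and 10 lower, where 50.5% of the 5042 genes at that level did, 29.9% higher and 20.6% lower. The half-width of a member's log2 interval was 0.10 at the median; it covers the error within a library and not the spread between cultures.

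**Figure D2:**
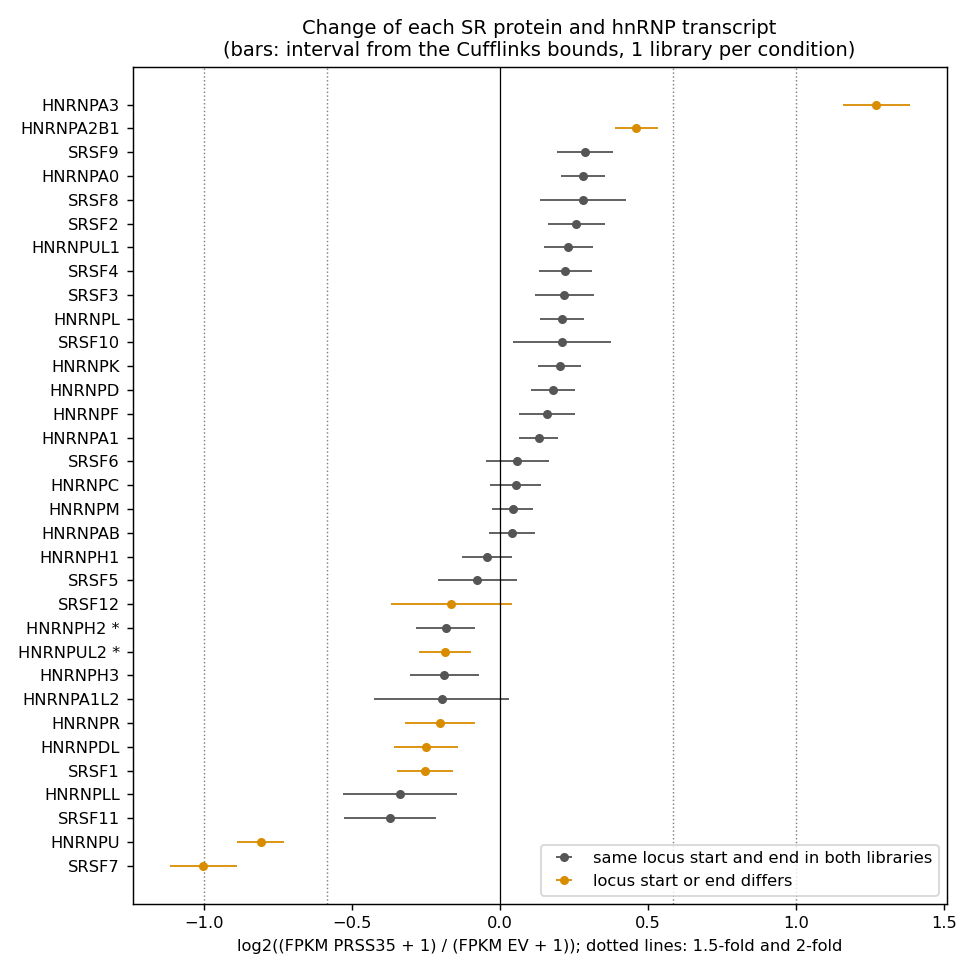
Log2 change of each expressed member in PRSS35 over EV, with bars for the interval that the Cufflinks bounds give, ordered by size. Members whose locus has the same start and end in both libraries (grey) lie between -0.37 and 0.29, and the 3 members past 1.5-fold, HNRNPA3, HNRNPU and SRSF7, are among those whose locus start or end differs (orange).

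Among the SR proteins, 7 of 12 had a higher value in PRSS35 and 5 a lower one, with a median log2 change of 0.13, and their summed level was 685 FPKM in EV and 741 in PRSS35. SRSF9, a small SR protein that antagonises SRSF1 at some alternative exons, had 276 FPKM in EV (263 to 289) and 336 in PRSS35 (321 to 352), a log2 change of 0.29. SRSF2, which binds enhancers in exons and is mutated in myeloid leukaemias, had 126 FPKM in EV and 150.3 in PRSS35, a log2 change of 0.26. For both the bounds lay apart and the locus had the same ends, although the row of SRSF2 also carries the name of the microRNA gene MIR636.

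SRSF3, which couples splicing with export and 3′ end choice, had 53.1 and 61.9 FPKM, and SRSF4 had 34.2 and 40.1. The log2 change was 0.22 for each, with bounds apart. SRSF8, an SRSF2-like gene, had 5.10 FPKM in EV and 6.40 in PRSS35 (log2 change 0.28, bounds apart). SRSF10, which loses its phosphates in heat shock and then represses splicing, had 12.2 and 14.2 FPKM with overlapping bounds. SRSF5, at 36.8 and 34.9, and SRSF6, at 22.5 and 23.4, had overlapping bounds as well.

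SRSF1, the founding SR protein and an oncogene in several epithelia, went the other way, with 30.3 FPKM in EV (28.9 to 31.8) and 25.3 in PRSS35 (24.1 to 26.5), a log2 change of -0.25. Its locus was 727 bases longer on the 5′ side in PRSS35. SRSF11, an SR-related factor that contacts U2AF and the U1 particle, had 13.1 FPKM in EV (12.0 to 14.2) and 9.92 in PRSS35 (9.08 to 10.7), a log2 change of -0.37, the lowest of the members whose locus was alike in both libraries.

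SRSF7, which recruits export factors and shapes 3′ ends, had 74.5 FPKM in EV (70.0 to 78.9) and 36.7 in PRSS35 (34.7 to 38.7), a log2 change of -1.001, or 0.493 times the level. In EV its assembled locus, chr2:38960675-38978636, ran 10066 bases past the 3′ end of the gene in GENCODE and overlapped GALM, the aldose mutarotase gene on that side, by 1235 bases. In PRSS35 the locus, chr2:38970741-38978636, had the annotated ends. GALM had 18.2 FPKM in EV and 22.5 with PRSS35. Read as counting error alone, the bounds imply 1123 fragments for SRSF7 in EV and 1375 in PRSS35, a rise where the FPKM fell. Such implied counts are rough: HNRNPA0, at 95.0 FPKM in EV and 116 in PRSS35, has 1812 and 9444. The part of the different locus ends in the SRSF7 difference was not tested.

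Among the hnRNPs, 12 of 21 had a higher value in PRSS35 and 9 a lower one, with a median log2 change of 0.04. The A/B and D group, which includes the main repressors of splice sites, summed to 1080 FPKM in EV and 1239 in PRSS35, and 6 of its 8 members had a higher value. HNRNPA1 had a log2 change of 0.13 with bounds apart as deposited, and of 0.07 with overlapping bounds after upper quartile scaling. HNRNPA0, a gene without introns whose product binds AU-rich mRNAs, had 95.0 FPKM in EV and 116 in PRSS35 (log2 change 0.28, bounds apart). HNRNPD, known as AUF1 and a factor in mRNA decay, had 105 and 119 FPKM (0.18, bounds apart), while HNRNPAB, at 265 and 272, had overlapping bounds.

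HNRNPA2B1, which also sorts microRNAs and reads modified RNA, had 113 FPKM in EV (109 to 117) and 156 in PRSS35 (151 to 162), a log2 change of 0.46. Its locus in PRSS35 was 11 bases longer at the 3′ end and 64 bases longer at the 5′ end, where it meets the divergent gene CBX3, a heterochromatin protein gene. The overlap with CBX3 was 70 bases in EV and 134 in PRSS35. CBX3 had 26.0 FPKM in EV and was listed at 0 in PRSS35, with both bounds at 0. An exact 0 in these files can be a failed estimate. Whether reads moved between the 2 loci was not tested.

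HNRNPA3, a close relative of HNRNPA2B1, had 24.8 FPKM in EV (23.2 to 26.3) and 61.2 in PRSS35 (58.0 to 64.4), a log2 change of 1.27, or 2.47 times the level. The EV locus began at the GENCODE start, chr2:178077422, and the PRSS35 locus at 178077310, the 112 bases in capitals above. That GENCODE start lies upstream of the RefSeq start on which the window shown is set. The microRNA gene MIR4444-1, in the first exon, is joined to the row in both libraries. The bounds of HNRNPA3, read in the same way as those of SRSF7, imply 1028 fragments in EV and 1492 in PRSS35. The part of the added start in the difference was not tested.

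HNRNPDL, the D-like relative of HNRNPD, had 26.6 FPKM in EV (25.1 to 28.0) and 22.2 in PRSS35 (21.0 to 23.4), a log2 change of -0.25. Its locus was 148 bases longer at the 5′ end in PRSS35 and there overlapped ENOPH1, an enzyme gene of the methionine salvage pathway on the other strand, by 117 bases, where the EV loci did not overlap. ENOPH1 had 8.20 FPKM in EV and 8.51 in PRSS35. HNRNPA1L2 had 3.89 and 3.27 FPKM with overlapping bounds, on reads it may share with HNRNPA1.

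The F and H group, which binds runs of guanines, summed to 379.7 FPKM in EV and 347 in PRSS35, and 3 of 4 members had a lower value. HNRNPF had 29.2 and 32.7 FPKM, with bounds apart and higher in PRSS35. HNRNPH1 had 70.2 and 68.1 with overlapping bounds, and HNRNPH3 had 24.2 and 21.2 (log2 change -0.19, bounds apart). The row of HNRNPH2, at 256 and 226 FPKM, joins it with RPL36A, an abundant ribosomal protein gene beside it, so that it does not measure HNRNPH2 alone and neither does the group sum.

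The remaining hnRNP groups are small. HNRNPC had 284 and 294 FPKM and HNRNPM 166 and 172, each with overlapping bounds and a log2 change of at most 0.05. HNRNPK, which binds cytosine runs and acts in transcription and translation, had 106 FPKM in EV and 122 in PRSS35 (log2 change 0.20, bounds apart). HNRNPL, which binds CA repeats, had 226 and 262 (0.21, bounds apart). Its paralog HNRNPLL, best known from CD45 splicing in lymphocytes, had 11.7 and 9.07 (-0.34, bounds apart), the opposite direction. HNRNPR had 23.3 and 20.2 (-0.20, bounds apart) with a locus 70 bases longer in PRSS35.

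HNRNPU, also called SAF-A, which ties RNA to the nuclear scaffold, had 75.2 FPKM in EV (72.1 to 78.3) and 42.6 in PRSS35 (41.0 to 44.1), a log2 change of -0.81. Its row carried an assembled identifier in EV and an annotated one in PRSS35, and the locus was 16 bases shorter at the 5′ end in PRSS35. Its bounds, read in the same way as those of SRSF7, imply 2342 fragments in EV and 2858 in PRSS35. Its relatives differed from it and from each other. HNRNPUL1, which acts in DNA break repair, had 93.4 and 109.7 FPKM (0.23, bounds apart). The row of HNRNPUL2, at 81.2 and 71.3, joins it with BSCL2, the seipin gene, and so is not a measure of HNRNPUL2 alone.

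**Figure D3:**
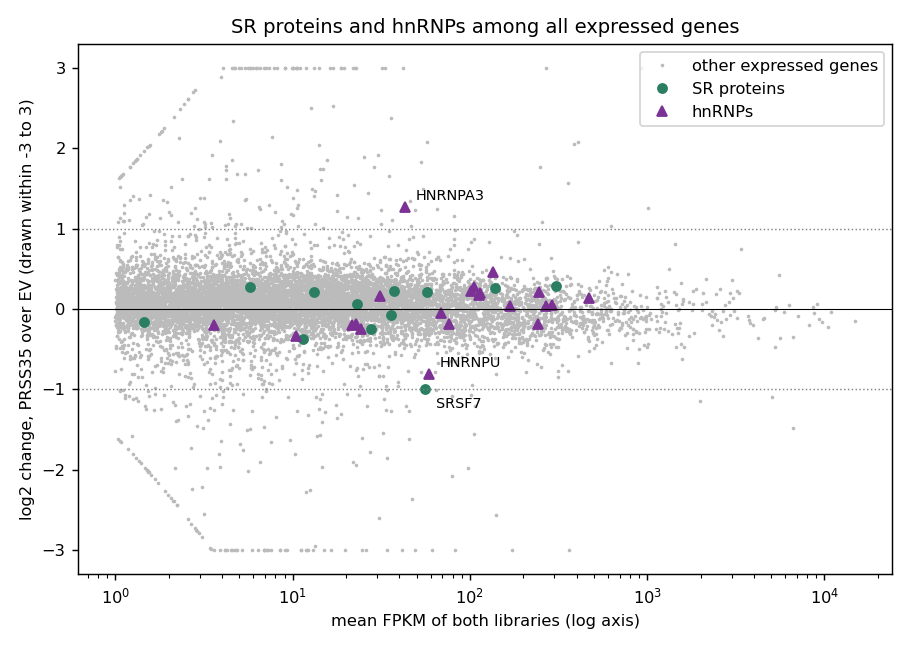
Log2 change in PRSS35 over EV against mean FPKM (log axis) for all other expressed genes (grey), SR proteins (green circles) and hnRNPs (purple triangles), with changes beyond the axis drawn at its edge and dotted lines at 2-fold. Most members lie in the band of the other genes at their level, with HNRNPA3 above it at 1.27 and SRSF7 and HNRNPU below it at -1.001 and -0.81.

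The 3 members past 1.5-fold all had locus ends that differed between the libraries. Cufflinks assembled each library separately, so that a gene's locus can begin or end at different bases. The locus had the same start and end for 24 members and other ends for 9 (27.3% of members and 21% of all expressed genes). None of the 24 was past 1.5-fold, and all 3 members that were, HNRNPA3, SRSF7 and HNRNPU, were among the 9. Among all expressed genes, 6.28% of the 8005 with the same ends and 13.9% of the 2128 with other ends were past 1.5-fold in either direction.

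The members with the same ends had a median log2 change of 0.15, with 17 higher and 7 lower, and 12 and 4 with bounds apart. All 8005 expressed genes with the same ends had a median of 0.06, with 60.9% higher, and 1964 and 1096 with bounds apart. The members with other ends had a median of -0.20, with 2 higher and 7 lower, while all 2128 expressed genes with other ends had a median of 0.07, with 59.7% higher. A longer locus in PRSS35 came with a higher value for HNRNPA3 and HNRNPA2B1 and with a lower one for SRSF1, HNRNPDL and HNRNPR. A shorter locus came with a lower value for SRSF7, HNRNPU, SRSF12 and HNRNPUL2.

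Rows also differ in whether they carry an assembled or an annotated identifier. Of the members, 24 were assembled in both libraries (72.7%, against 55.5% of expressed genes), 3 were annotated in both (SRSF8, HNRNPF and HNRNPH3), 5 were assembled in EV only (SRSF3, SRSF12, HNRNPA0, HNRNPA1L2 and HNRNPU) and SRSF4 was assembled in PRSS35 only. Of all expressed genes assembled in EV only, 7.9% were 1.5-fold lower in PRSS35 and 1.37% higher. Of those assembled in PRSS35 only, 10.5% were 1.5-fold higher and 0.73% lower. Of the 5 members assembled in EV only, SRSF3 (0.22) and HNRNPA0 (0.28) had a higher value and HNRNPU (-0.81), HNRNPA1L2 (-0.20) and SRSF12 (-0.16) a lower one, and HNRNPA3 and SRSF7 were assembled in both. The part of the identifier in the HNRNPU difference was not tested.

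**Figure D4:**
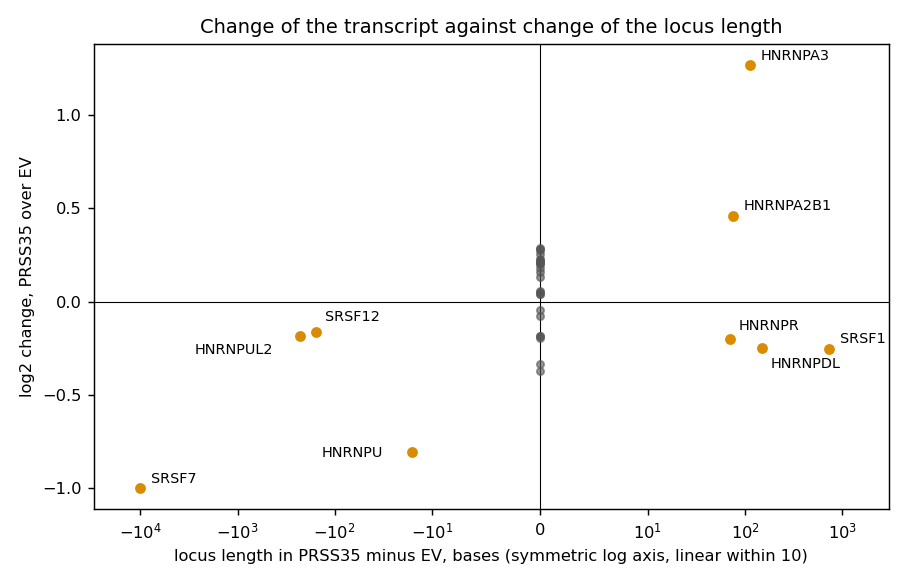
Log2 change of each expressed member against the difference in locus length, PRSS35 minus EV, in bases (symmetric log axis). The 24 members with the same ends stack at 0 between -0.37 and 0.29, HNRNPA3 stands at 112 added bases with 1.27, and SRSF7 at 10066 fewer bases with -1.001.

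Other splicing genes, in lists by role, gave the setting for these values. The list of SR protein kinases and catalytic subunits of protein phosphatase 1 had 9 of 11 genes expressed, with a median log2 change of -0.06, 4 higher and 5 lower and none past 1.5-fold. PPP1CA, a catalytic subunit that removes the phosphates, had 700.3 and 669.6 FPKM and CLK3 26.3 and 29.7. The list of SR-related coactivators had 12 of 14 expressed and a median of -0.07, with TRA2B past 1.5-fold. TRA2B, which binds GAA-rich enhancers, had 38.4 FPKM in EV and 23.3 in PRSS35, a log2 change of -0.70, with an assembled identifier in EV only. RNPS1, at 122 and 125 FPKM, and LUC7L2, at 93.0 and 83.0 in a joined row, were the highest of that list.

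The list of hnRNPs known by other names had 9 expressed genes, a median of 0.07, 5 higher and 4 lower. RALY, a relative of HNRNPC, had 258 FPKM in EV and 166 in PRSS35, a log2 change of -0.63, with other locus ends. CIRBP, the cold-inducible RNA-binding protein, had 899 and 644 FPKM in a row joined with C19orf24, and PCBP2, a relative of HNRNPK joined with PCBP2-OT1, had 276 and 326.

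The list of other splicing regulators had 21 of 28 expressed, with a median of 0.08 and 3 past 1.5-fold. RBM10, not counted as expressed, was listed at 0 with both bounds at 0 and an assembled identifier in both libraries. Its 0 can be a failed estimate. ELAVL1, the mRNA stabiliser HuR, had 22.7 FPKM in EV and 50.02 in PRSS35 (log2 change 1.11), with an assembled identifier in PRSS35 only. TIAL1 had 9.17 and 16.2 (0.76) with other locus ends, and RBM39 had 29.1 and 17.0 (-0.74) with the same ends. The highest rows of the list were PUF60, at 323 FPKM in EV, where it is joined with PLEC, and 231 in PRSS35, where it is not, and RBM4, joined with RBM14, at 152 and 161. Of the 40 expressed genes of the core spliceosome list, 26 were higher and 14 lower, with a median of 0.08 and a range of -0.29 to 0.38. SF3B5 had 904 and 759.9 FPKM and SNRPB 853 and 959.7, the highest levels of that list. Against that narrow range, HNRNPA3, SRSF7 and HNRNPU had wider differences, without a test of the gap. The locus ends of these 3 differed between the libraries, while EFTUD2 and SART1 were the core genes with other ends. Members with the same ends spanned -0.37 to 0.29. Of the list of other regulators, ELAVL1, TIAL1, RBM39, QKI (0.53) and PUF60 (-0.48) also lay outside the core range. So did TRA2B, BCLAF1 (-0.38), PPP1CB (-0.48), RALY, CIRBP (-0.48) and RBM8A (1.22) of the other lists. The members HNRNPA2B1, SRSF11 and HNRNPLL lay outside it too.

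**Figure D5:**
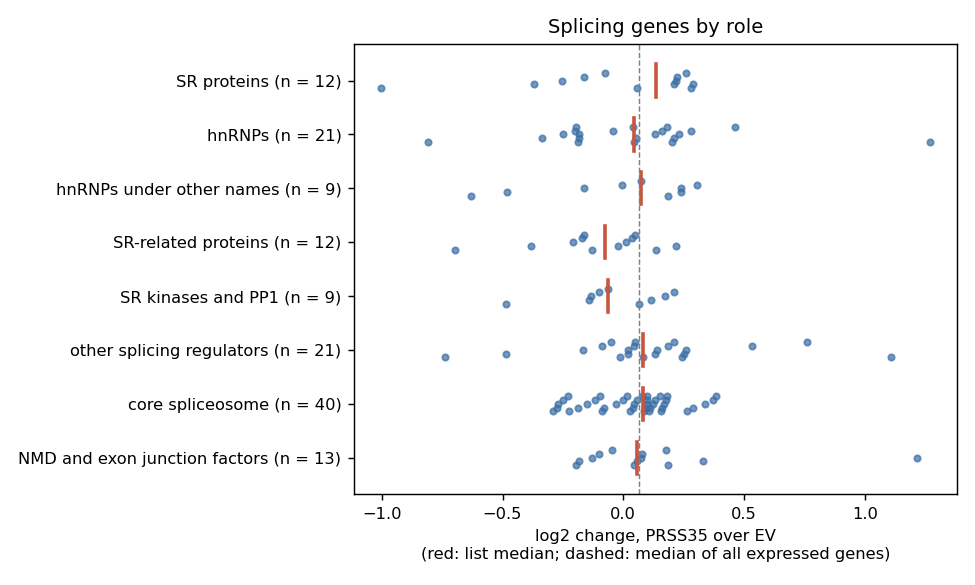
Log2 change in PRSS35 over EV of the expressed genes of each list, 1 point per gene, with the list median in red and the median of all expressed genes (0.06) dashed. List medians lie between -0.07 and 0.13, and the core spliceosome genes stay between -0.29 and 0.38.

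NMD is the route by which many members limit their own mRNA. Of the 33 expressed members, 26 (78.8%) had at least 1 transcript annotated as an NMD target in GENCODE, against 48.2% of 8644 expressed coding genes, and the median was 2 such transcripts a member against 0 a gene. HNRNPA2B1 had 35 of 49 annotated transcripts, HNRNPA1 18 of 84, HNRNPU 9 of 32 and SRSF7 6 of 12. These shares were not adjusted for the number of annotated transcripts per gene. The expressed coding genes leave out joined rows, and the members do not. A retained-intron transcript was annotated for 25 members, where 62.3% of expressed coding genes had one. FPKM is summed over the transcripts of a gene, so that coding and NMD forms cannot be told apart in these values. The list of NMD and exon junction factors had 13 of 14 expressed, a median of 0.06 and 1 gene past 1.5-fold, RBM8A, the exon junction protein Y14, with 10.3 FPKM in EV and 25.2 in PRSS35 (log2 change 1.22) and an assembled identifier in PRSS35 only. EIF4A3, the helicase of the exon junction complex, had 93.2 and 105 FPKM and SMG5 67.9 and 65.7.

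The promoters of 31 members were found in the RefSeq table, each from 250 bases before to 50 after the start, and were searched on both strands. The first window of each gene in the table was used, and 10 members have more than 1. CCAAT, the letters of the CCAAT box, occurred in 15 of 31 (48.4%), against 35.7% of all 27305 promoters and 37.3% of the 7306 of expressed genes. When any window of a gene could hold it, an alternative chosen after the data had been seen, CCAAT occurred in 19 members (61.3%), HNRNPDL among them, against 39.7% of all and 43.4% of expressed genes. GGGCGG, a GC box, occurred in 67.7% of members, 44.6% of all and 72.7% of expressed genes. TATAAA occurred in 5 members (16.1%), HNRNPAB, HNRNPC, HNRNPD, SRSF11 and SRSF3, against 12.0% of all and 4.98% of expressed genes. CCGGAAGT, an ETS site, occurred in 9.68%, 4.44% and 9.13%, and the palindromic NRF1 motif in 0 members, 1.36% of all and 2.44% of expressed genes. The windows of HNRNPA3 and HNRNPU, whose changes went in opposite directions, both hold CCAAT and GGGCGG, and neither window of SRSF7 holds CCAAT, while its first holds GGGCGG.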

How the data were processed

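RNA of PLC cells with the empty vector and with PRSS35 was sequenced by the authors, 1 library per condition. Per their methods and processing notes, reads were aligned to hg19 with TopHat2 2.1.0 and transcripts were estimated with Cufflinks 2.2.1 (the notes name Cuffdiff 2.2.1); the annotation release is not given in the sources used here. The deposited values are FPKM per locus, scaled by the authors for transcript length and mapped fragments, with lower and upper bounds. The files hold no counts, so depth per library is unknown.

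Loci were matched by name, those on alternate haplotypes or unplaced contigs were dropped, FPKM of loci with the same name was summed, and rows that join several names were marked. Genes averaging at least 1 FPKM were called expressed. Each change is log2 of the FPKM ratio after adding a pseudocount of 1 FPKM, which understates the change of low genes. Calls were made at 2-fold and 1.5-fold and by bounds that do not overlap. Named were all members, with full values for the most abundant, the most changed and the joined ones, and from each list the genes past 1.5-fold and the 2 most abundant. Splicing and NMD genes outside the range of the core spliceosome list were named as well, and RBM10 for its value of 0. Members and lists were chosen with earlier results of these data known.

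Gene ends and transcript types came from GENCODE on GRCh37. Protein sequences were not used here. Alternatives were other pseudocounts, scalings, filters and sets of loci. Python 3.11.15, numpy 2.4.6, pandas 2.3.3 and matplotlib 3.10.9 were used, and the scripts were tested on simulated data.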

Additional observations from a re-analysis of the deposited data

How the results depend on the processing

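The median log2 change of the members (0.05) and the counts past 2-fold (2) and 1.5-fold (3) were recomputed with pseudocounts of 0.1 and 5 FPKM, 4 scalings, other filters and other sets of loci. No paired analysis was possible because there was 1 library a condition, and no library could be left out. Scaled by the FPKM total of every locus, named or not, the median was 0.75 (0.69 for all expressed genes), 21 members were past 1.5-fold, all higher, the 2 past 2-fold were HNRNPA3 and HNRNPA2B1, 12 changed sign, and the members' share of the summed FPKM was 0.13% in EV and 0.227% in PRSS35 instead of 0.375% and 0.413% of the named loci. That sum was 2469030 FPKM in EV and 1508529 in PRSS35, of which named loci held 856880 and 831520. Centring on the median of all genes and upper quartile scaling each changed the sign of 4 members, HNRNPAB, HNRNPC, HNRNPM and SRSF6. A single member (1) stayed past 2-fold when 5 FPKM were added or when named loci alone set the scale, each without SRSF7, and also (1) with joined loci left out, which drops HNRNPA3. With the 3 loci annotated in both libraries alone, the median was 0.16 and both counts were 0. The set of loci with the same ends, chosen after the data had been seen, gave counts of 0 at 2-fold and at 1.5-fold, and 4 members with bounds apart and lower in place of 10. Leaving out the rows of HNRNPH2 and HNRNPUL2, also chosen after the data had been seen, kept both counts. Over the settings that retain them, SRSF7 ranged from -1.07 to -0.31, HNRNPU from -0.87 to -0.11, HNRNPA3 from 1.15 to 1.97 and HNRNPA2B1 from 0.39 to 1.17, with no change of direction. Beyond what each alternative's own construction shows, the cause was not tested. With no counts, the precision rests on the Cufflinks bounds.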

Other observations

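Several genes beside members were listed at 0 in both libraries although they overlap a member's locus. MFSD11, a transporter-like gene that overlaps SRSF2 by 847 bases, and RUFY2, which overlaps HNRNPH3 by 2090 bases, were listed at 0, and an exact 0 in these files can be a failed estimate. GATC, a subunit of the mitochondrial glutaminyl-tRNA amidotransferase, overlaps SRSF9 by 2086 bases and had 12.6 FPKM in EV and 16.7 in PRSS35. PHYKPL, a lyase gene that overlaps HNRNPAB by 2710 bases, had 7.54 and 9.68 FPKM. An unnamed assembled locus inside HNRNPUL1 had 16.8 FPKM in EV over 294 bases, and a differently placed one had 0.904 in PRSS35 over 911 bases.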
